A study of Mus musculus with 3 samples.

Results

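The genes described here are 10 early neuron differentiation genes, which a cell switches on as it leaves the cell cycle and becomes a neuron. They are *Nhlh1*, *Neurod1*, *Isl1*, *Elavl3*, *Elavl4*, *Tubb3*, *Stmn2*, *Dcx*, *Map2* and *Ina*. They were chosen by name, as markers of the first postmitotic neurons, at a time when results of these same counts were already known. Their differences between the genotypes are therefore given as a description. All 10 were found among the 24062 gene symbols of both count columns, and 9 of them reached a sum of 10 counts over both libraries, the minimum for a fold change to be read. *Neurod1* did not reach it.

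RNA-Seq was performed on the rostrum (the front of the head) of E9 mouse embryos recorded as 18 to 22 somites. The *tuft* embryos came from the 3H1 Balb strain, were homozygous for a nonsense mutation (C to T) in *Tet1*, which encodes a methylcytosine dioxygenase, and were taken because they presented curled neural folds. The wild-type embryos were of the same 3H1 Balb background. RNA was pooled from 3 embryos. Each genotype has a single count column, called its library here, but 2 *tuft* samples are recorded, and which of them the *tuft* column holds, or whether it holds both, is not known. No value therefore has a replicate error, and the somite numbers of the pooled embryos are not given. The question was which genes change in embryos with this neural tube closure defect. Each fold change below is *tuft* over wild type after TMM scaling of the counts, and each interval is a 95% Clopper-Pearson interval that covers counting error only. It leaves out differences between embryos, dissections and library preparations, and no test of the genotype is possible with 1 library per group.

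Neurons are born when progenitors of the neural tube, and of the placodes that form the cranial ganglia, stop dividing under the influence of proneural transcription factors. The newborn cell replaces its progenitor transcripts with those for neuronal RNA-binding proteins, for tubulin and microtubule-associated proteins that build the axon, and for neuronal intermediate filaments. At this stage most cells of the head are still dividing, so transcripts of this program come from a small share of the tissue, and fewer neurons cannot be told apart from less RNA of these genes per neuron.

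The *tuft* library held 6433067 counts on genes and the wild-type library 14251942, or 2.22 times as many. *Tet1* itself (chr10:62804570-62887469, mm10) was read 32 times in *tuft* against 435 times in wild type, giving a fold change of 0.214 (0.145 to 0.307). The counts do not show the allele. The libraries stood apart over the whole transcriptome, since 542 of 10121 genes with 100 or more wild-type counts (5.36%) had no count in *tuft*, whereas 6 of 7143 genes had none in the reverse direction. Of all 13979 genes that reached this sum of 10 counts, 21.3% were at least 2-fold higher and 38.2% at least 2-fold lower in *tuft*.

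TET1 is known to occupy promoters rich in CG dinucleotides, where its substrate lies, and promoter windows of the 10 genes differed widely in that respect. RefSeq windows of 300 bases (GRCm38.p6, 250 bases before the start of transcription and 50 after it) were found for 9 of the genes, and none was found for *Stmn2*. A window is printed for the gene with the highest and the one with the lowest fold change among those whose whole interval lay past 2-fold, *Elavl3* and *Ina*, and for the genes whose windows were poorest in CG, *Nhlh1* and *Dcx*. They run 5′ to 3′ on the strand of the gene, and capitals mark each CG:
Elavl3, chr9:22051974-22052273, minus strand: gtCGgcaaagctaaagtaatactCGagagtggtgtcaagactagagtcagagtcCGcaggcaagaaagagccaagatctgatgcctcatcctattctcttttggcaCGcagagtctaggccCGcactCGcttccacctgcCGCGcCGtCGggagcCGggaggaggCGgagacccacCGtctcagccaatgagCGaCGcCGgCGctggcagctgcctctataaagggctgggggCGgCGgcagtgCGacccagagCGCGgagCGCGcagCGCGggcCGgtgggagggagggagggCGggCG
Ina, chr19:47014431-47014730, plus strand: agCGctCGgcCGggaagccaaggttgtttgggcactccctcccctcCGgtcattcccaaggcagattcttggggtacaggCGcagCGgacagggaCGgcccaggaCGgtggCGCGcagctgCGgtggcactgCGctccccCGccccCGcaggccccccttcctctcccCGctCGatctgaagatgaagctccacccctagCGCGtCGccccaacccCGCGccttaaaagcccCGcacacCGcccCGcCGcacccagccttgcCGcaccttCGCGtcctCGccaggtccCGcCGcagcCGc
Nhlh1, chr1:172057547-172057846, minus strand: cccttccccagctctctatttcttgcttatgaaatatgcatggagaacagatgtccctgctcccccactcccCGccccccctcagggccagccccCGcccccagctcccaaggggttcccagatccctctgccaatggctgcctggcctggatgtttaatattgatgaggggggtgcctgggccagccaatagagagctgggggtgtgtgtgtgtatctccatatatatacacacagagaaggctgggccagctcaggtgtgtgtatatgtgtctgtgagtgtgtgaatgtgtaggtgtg
Dcx, chrX:143933170-143933469, minus strand: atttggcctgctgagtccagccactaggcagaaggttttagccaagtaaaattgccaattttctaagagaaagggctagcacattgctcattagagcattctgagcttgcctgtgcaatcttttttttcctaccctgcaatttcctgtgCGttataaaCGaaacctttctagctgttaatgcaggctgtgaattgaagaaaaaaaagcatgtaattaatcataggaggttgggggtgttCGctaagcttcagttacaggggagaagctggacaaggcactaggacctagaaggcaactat

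The *Elavl3* window held 29 CG pairs, a number reached by 12.9% of the 32851 windows in the reference, and the *Ina* window held 32, reached by 9.52%. The *Nhlh1* window held 2 and the *Dcx* window 3, against a median of 7 over all windows. Thus the gene that was highest in *tuft* and the one that was lowest both had windows in the upper part of the range. The windows of *Map2* and *Isl1* held 37 pairs each, those of *Tubb3* and *Neurod1* 26 each, and that of the first *Elavl4* start 23, while its other 3 starts had 4 to 6. No DNA methylation was analyzed here.

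Short motifs were also searched on both strands of these windows. CAGCTG, an E-box that reads the same on both strands, is a form known to be bound by basic helix-loop-helix factors. It was present in the windows of *Elavl3*, *Isl1*, *Ina* and 2 of the 4 windows of *Elavl4*, and in 16.3% of all windows. These 2 *Elavl4* windows overlap almost fully and share the same site. CAGATG, an E-box known for proneural factors, was found in the *Nhlh1* window and in 3 of the *Elavl4* windows, and in 17.2% of all windows. The 2 overlapping *Elavl4* windows again share 1 site, and the window of the first *Elavl4* start held neither E-box. TATAAA, the core sequence of a TATA box, was found in those of *Elavl3* and *Dcx* and in 13.6% of all windows. Matches were counted at any position, so a match is not by itself a TATA box. In the printed *Dcx* window it lay near the middle, well before the start of transcription. The 3 motifs differ in letters and were counted independently of each other.

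Of the 9 genes with enough counts, 2 were at least 2-fold higher in *tuft*, *Elavl3* and *Elavl4*, where 21.3% of all genes were. Another 4, *Nhlh1*, *Isl1*, *Map2* and *Ina*, were at least 2-fold lower, where 38.2% of all genes were. *Tubb3*, *Stmn2* and *Dcx* lay within 2-fold. Among the 9739 genes with as many summed counts as these 9 (25 to 1672), the shares were 22.6% and 43.6%. The median log2 fold change of the 9 genes was 0.33, beside -0.46 for all genes, whose quartiles were -1.79 and 0.78, and -0.56 for those with as many summed counts. The whole counting interval lay past 2-fold upward for *Elavl3*, as it did for 17.4% of all genes, and downward for *Ina*, as it did for 29.8%.

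Since the median of all genes lay below 0, the genes were also read against it. Relative to that median, the log2 differences were 2.94 for *Elavl3*, 1.92 for *Elavl4*, 0.91 for *Dcx*, 0.81 for *Stmn2* and 0.78 for *Tubb3*. They were -0.76 for *Map2*, -0.81 for *Isl1*, -0.94 for *Nhlh1* and -1.21 for *Ina*. On this scale, chosen after seeing the data, *Ina* alone of the 9 was still at least 2-fold lower, where 30.4% of all genes were, and *Elavl3* and *Elavl4* were still at least 2-fold higher, where 29.6% were.

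**Figure D1:**
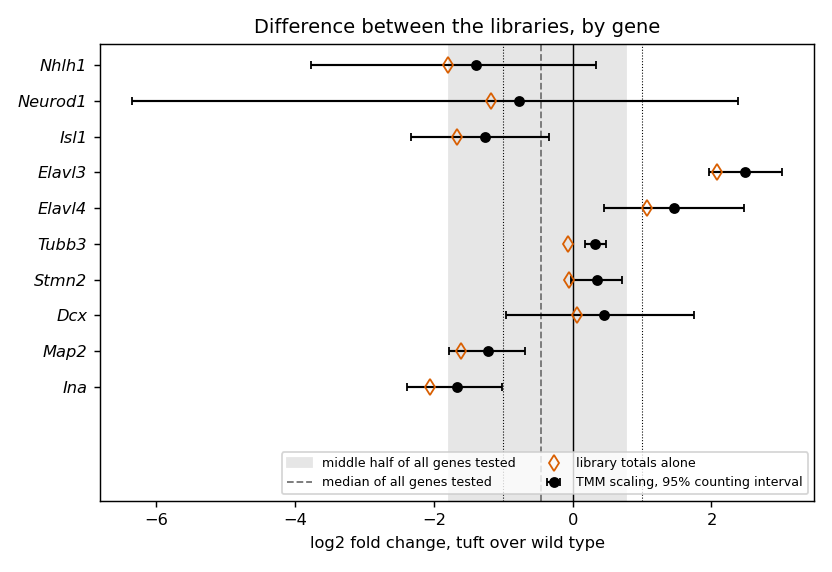
Log2 fold change of each gene, *tuft* over wild type (horizontal axis), in 1 library per genotype; black points use TMM scaling with 95% counting intervals, orange diamonds use library totals alone, dotted lines mark 2-fold, the grey band is the interquartile range of all genes and the dashed line their median. *Elavl3* at 2.48 and *Ina* at -1.67 are the points whose intervals lie wholly past 2-fold, *Tubb3* and *Stmn2* change side of 0 between the scalings, and *Neurod1* had too few counts to be read.

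The transcription factors of the group were all sparsely counted. *Nhlh1* (chr1:172052292-172057596) encodes a basic helix-loop-helix factor of newborn neurons and gave 3 *tuft* counts against 23 wild-type counts. Equal levels would have given 7.90 counts in *tuft*. The fold change was 0.380, and its interval of 0.0730 to 1.26 includes 1, so that a difference was not detectable at this depth.

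*Neurod1* (chr2:79452637-79456636), a proneural-related factor that drives differentiation in cranial sensory ganglia, gave 1 *tuft* count against 5 wild-type counts. The fold change of 0.582 carried an interval of 0.0123 to 5.20, which leaves it unread. *Isl1* (chr13:116298270-116309688), a LIM homeodomain factor of motor and cranial sensory neurons that is also expressed in cardiac progenitors and pharyngeal endoderm, had 11 counts in *tuft* against 77 in wild type. The *tuft* level was 0.416 of wild type (0.199 to 0.787), lower beyond counting error.

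*Isl1* is thus not specific to neurons in this tissue. Over all genes, 38.2% were at least 2-fold lower in *tuft* and 21.3% higher. Of 7 pharyngeal and cardiac genes (*Nkx2-5*, *Tbx1*, *Tbx20*, *Hand2*, *Myl7*, *Tnnt2* and *Actc1*), 5 had enough counts. Of these, 4 were at least 2-fold lower in *tuft*, with none higher. Their summed level, in CPM (counts per 1000000 counts on genes), was 0.155 in *tuft* against 11.0 in wild type. All of them except *Tbx20* had no count in *tuft*, and *Tbx20* gave 1 there against 32 wild-type counts. The part of these cells in the *Isl1* value was not tested. Of 6 pharyngeal endoderm genes, 5 had enough counts, 2 were higher and none lower, at 233 and 61.7 CPM in sum. Most of the *tuft* sum came from the 2 higher genes, *Nkx2-1* (119 and 20.7 CPM) and *Shh* (86.6 and 20.6 CPM). *Foxa2*, *Sox17* and *Foxe1* were within 2-fold. Which cells of the rostrum these transcripts came from was not tested. *Pou4f1*, a POU factor of cranial sensory neurons, was absent from the *tuft* counts and had 33 in wild type. It was 3.78-fold lower with the *tuft* count set to a floor of 3, and its counting interval reached up to 0.344. It was named after its values were seen.

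The neuronal RNA-binding proteins were the members that were higher in *tuft*. *Elavl3* (chr9:22015005-22052146), also called HuC, encodes a protein that stabilizes neuronal mRNAs and marks cells as they become postmitotic. It gave 92 *tuft* counts against 48 wild-type counts, more in the shallower library. The fold change was 5.58 (3.90 to 8.09). *Elavl4* (chr4:110203737-110351939), or HuD, of the same family, gave 18 *tuft* counts against 19 wild-type counts. Its level was 2.76 times that of wild type (1.37 to 5.55), higher beyond counting error but with an interval that reaches below 2-fold.

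The same was seen in *Elavl2*, another neuronal relative of this family, with 358 *tuft* counts against 188 wild-type counts. Its fold change of 5.55 (4.63 to 6.65) was close to that of *Elavl3* and rests on more counts. *Elavl1*, the relative present in most cell types, gave 1971 and 3579 counts, 1.60-fold (1.52 to 1.69). Within each library, the number of *Elavl3* counts for each *Elavl1* count changed 3.48-fold (2.42 to 5.06), and that of *Elavl2* changed 3.46-fold (2.86 to 4.18), values that do not depend on how the libraries are scaled. For *Elavl4* the change was 1.72 (0.849 to 3.47), which is not beyond counting error.

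Among the microtubule proteins, the fold changes of 3 of 4 genes lay within 2-fold, that of *Dcx* on few counts. *Tubb3* (chr8:123411553-123422015), the neuron-specific beta tubulin, was the most abundant gene of the group, with 503 *tuft* counts against 1169 wild-type counts. Its fold change of 1.25 (1.13 to 1.39) became 0.953 when libraries were scaled by their totals alone, so that no direction can be given. RefSeq lists a pseudogene, *Tubb3-ps1*, which has no count of its own here. *Stmn2* (chr3:8509527-8561604), a stathmin that regulates microtubule turnover in growth cones, had 94 and 215 counts. Its fold change was 1.27 (0.988 to 1.63) with TMM and 0.969 with library totals.

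*Dcx* (chrX:143855842-143933396), which encodes the doublecortin protein of migrating neurons, gave 8 *tuft* counts against 17 wild-type counts. With a fold change of 1.37 (0.512 to 3.35), neither a 2-fold increase nor no difference lies outside its interval. *Map2* (chr1:66175202-66442583), a microtubule-associated protein of dendrites that accumulates as neurons mature, differed from the other 3. It gave 34 *tuft* counts against 230 wild-type counts, a level of 0.430 of wild type (0.291 to 0.619). RefSeq places a long noncoding RNA within the bounds of *Map2*, and how reads shared with it were counted is not given in the sources used here.

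*Ina* (chr19:47014681-47025327) encodes internexin alpha, an intermediate filament protein that appears early in neurons. It gave 21 *tuft* counts against 194 wild-type counts and, with a fold change of 0.315 (0.191 to 0.496), was 3.17-fold lower in *tuft*. Its gene shares 494 bases with *Nt5c2*, which had 120 and 546 counts, and whether strand was used in the counting is not given in the sources used here. Thus *Ina* and *Map2*, both parts of the neuronal cytoskeleton that are lower in *tuft*, stand beside *Tubb3* and *Stmn2*, which lie within 2-fold.

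**Figure D2:**
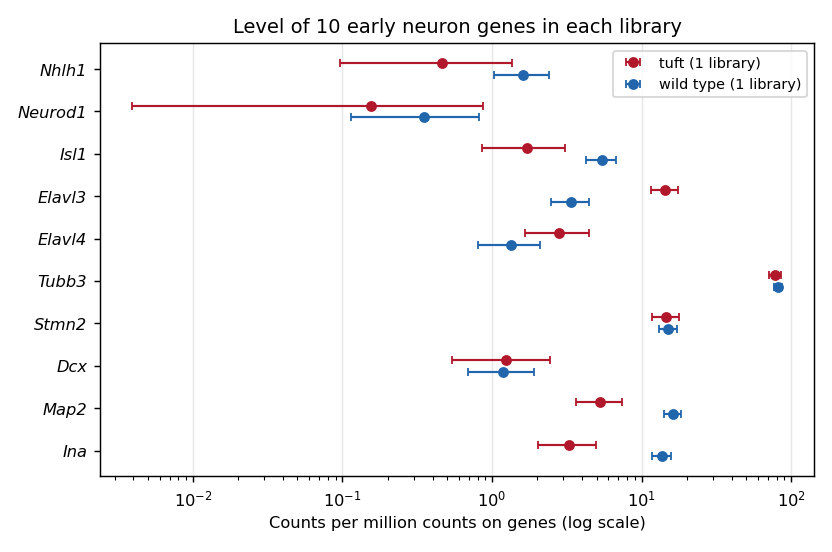
Level of each gene in CPM (horizontal log axis), with 1 point per library (*tuft* red, wild type blue) and 95% counting intervals. The *tuft* and wild-type points of *Tubb3* lie at 78.2 and 82.0 CPM, and the intervals of the libraries are apart for *Isl1*, *Elavl3*, *Map2* and *Ina*.

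The order of the genes by level was compared within each library in CPM per kilobase of exon. In both, *Tubb3* stood first, at 41.9 in *tuft* and 43.9 in wild type, and *Stmn2* stood second, at 7.67 and 7.92. *Elavl3* held rank 3 in *tuft* at 2.84 and rank 6 in wild type at 0.670. *Ina* held rank 3 in wild type at 4.20 and rank 4 in *tuft* at 1.01. The first 4 places in *tuft* were separated from each other beyond counting error. From *Ina* down through *Isl1*, *Elavl4*, *Map2*, *Nhlh1*, *Dcx* and *Neurod1* no neighbours were. For both libraries, exon lengths were taken as exact, so that any error in length is left out.

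In wild type, the order ran from *Tubb3* through *Stmn2*, *Ina*, *Isl1* and *Map2* to *Elavl3*, each separated from the next beyond counting error. *Elavl3* did not differ there from *Nhlh1*, which lay above *Elavl4*, and *Elavl4*, *Neurod1* and *Dcx* were not separated. Summed over the 10 genes, the libraries held 785 *tuft* counts against 1997 wild-type counts, which are 122 and 140 CPM. *Tubb3* alone made up 64.1% and 58.5% of these sums, so that the sum largely follows that gene.

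Ratios between genes of the same library do not depend on the scaling, and *Tubb3* was used as the base for the other 9. *Stmn2* kept its proportion, with 0.187 counts for each *Tubb3* count in *tuft* and 0.184 in wild type, a change of 1.02 (0.771 to 1.33). The change of *Dcx* was 1.09 (0.406 to 2.69). *Elavl3* relative to *Tubb3* was 4.45-fold higher in *tuft* (3.05 to 6.55) and *Elavl4* 2.201-fold higher (1.08 to 4.47). Both RNA-binding proteins were therefore higher relative to the tubulin whatever scaling is used.

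Lower proportions to *Tubb3* were measured for *Isl1* at 0.332 (0.158 to 0.635), *Map2* at 0.344 (0.229 to 0.503) and *Ina* at 0.252 (0.150 to 0.401). For *Nhlh1*, at 0.303 (0.0580 to 1.01), and *Neurod1*, at 0.465 (0.00981 to 4.17), the interval includes 1. The widest contrast in the group was between *Elavl3* and *Ina*. There were 4.38 *Elavl3* counts for each *Ina* count in *tuft* against 0.247 in wild type, a 17.5-fold change (9.70 to 32.8). Of the 45 pairs among the 10 genes, 22 differed in their ratio between the libraries beyond counting error. These pairs share genes and are not independent. Pairs of other genes were not counted, so whether 22 is many or few for such genes is not known.

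**Figure D3:**
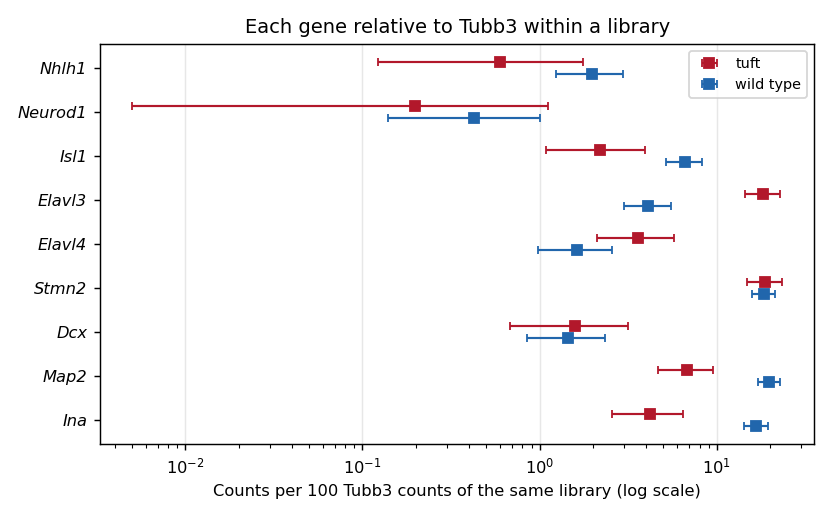
Counts of each gene for every 100 *Tubb3* counts of the same library (horizontal log axis), with 1 square per library (*tuft* red, wild type blue) and 95% counting intervals. *Stmn2* and *Dcx* coincide between the libraries, *Elavl3* and *Elavl4* lie to the right in *tuft*, and *Isl1*, *Map2* and *Ina* lie to the left.

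Gene families were compared next, because a member can be read beside relatives that are not specific to neurons. Of 30 relatives, 24 had enough counts. Of these, 6 were at least 2-fold higher in *tuft*, 8 at least 2-fold lower and 10 within 2-fold, with a median log2 fold change of -0.54, and 4 had no *tuft* count. The family members thus spread on both sides, as the 10 genes did and as all genes did (21.3% higher and 38.2% lower).

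Among the beta tubulins, *Tubb2b*, abundant in progenitors and young neurons, gave 1833 *tuft* counts against 1783 wild-type counts, a ratio of 2.99 after scaling (2.80 to 3.20). *Tubb2a* was at 3.81, *Tubb6* at 3.08 and *Tubb4a* at 1.55. *Tubb5*, the major beta tubulin of dividing cells, was at 0.524, and *Tubb4b* at 0.171. *Tubb3* at 1.25 therefore lay between its relatives. Relative to *Tubb5* it was 2.39-fold higher in *tuft* (2.14 to 2.66), and relative to *Tubb2b* it was at 0.419 (0.369 to 0.474).

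*Stmn1*, the stathmin found in most dividing cells, gave 3 *tuft* counts against 2064 wild-type counts, a ratio of 0.00423 after scaling (0.000872 to 0.0124). It is among the abundant wild-type genes that were nearly without counts in *tuft*. *Stmn2*, at 1.27, did not share this. Further relatives were chosen after their values were known. *Stmn2* relative to *Stmn3* was 2.27-fold higher in *tuft* (1.29 to 4.17), and *Nhlh2*, the relative of *Nhlh1*, gave 59 *tuft* counts against 3 wild-type counts, a ratio of 57.3 after scaling (18.7 to 286).

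*Nhlh1* and *Nhlh2* encode closely related factors and stood in opposite orders in the libraries. For each *Nhlh2* count there were 0.0508 *Nhlh1* counts in *tuft* against 7.67 in wild type, and the ratio of these values was 0.00772 (0.000891 to 0.0422). This value rests on 3 *Nhlh1* counts in *tuft* and 3 *Nhlh2* counts in wild type.

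Of the doublecortin relatives, *Dclk1* was at 0.316 (0.168 to 0.550), with 14 and 129 counts, and *Dclk2* at 0.711 (0.575 to 0.874). *Dcx* relative to *Dclk1* was 4.28-fold higher in *tuft* (1.35 to 13.0), on 8 *Dcx* counts. Among the structural microtubule-associated proteins, *Map1a* was at 1.84, *Map1b* at 0.706 and *Map4*, found in most cell types, at 0.211. *Map2* relative to *Map1b*, which is made earlier in axons, was at 0.610 (0.409 to 0.886), so that *Map2* was lower relative to it too. *Mapt*, which encodes tau and was named after its values were seen, had no *tuft* count against 19 wild-type counts and was at least 2.17-fold lower.

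The neurofilament genes, also named after their values were seen, were split. *Nefl* gave 1 *tuft* count against 67 wild-type counts, and *Nefm* none against 30, whereas *Nefh* gave 52 against 35. The *Nefh* gene shares 745 bases with *Ap1b1*. Of the filaments of progenitors, *Nes*, which encodes nestin, gave 1477 and 2404 counts, 1.79-fold (1.68 to 1.91), and *Vim*, for vimentin, was at 0.630 (0.586 to 0.676). *Ina* relative to *Nes* was at 0.176 (0.106 to 0.279) and relative to *Vim* at 0.501 (0.301 to 0.793), lower than either.

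**Figure D4:**
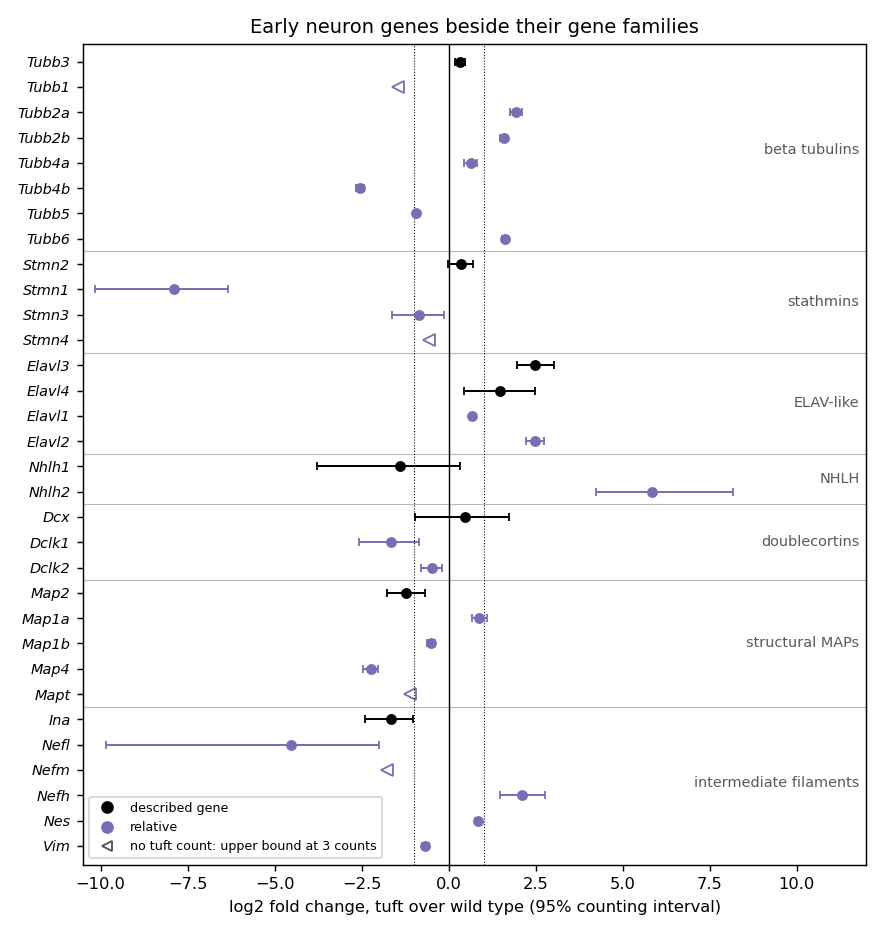
Log2 fold change, *tuft* over wild type (horizontal axis), of each described gene (black) and its relatives (purple) that reached a sum of 10 counts, grouped by family, with 95% counting intervals; open triangles are upper bounds for relatives without a *tuft* count and dotted lines mark 2-fold. *Elavl2* and *Elavl3* lie together at 2.47 and 2.48, and *Nhlh1* at -1.40 and *Nhlh2* at 5.84 lie on opposite sides.

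The steps before and after these genes in the lineage were then described, from lists chosen with earlier results known. Beside each list stand the shares of all genes, 21.3% at least 2-fold higher and 38.2% lower. Commitment of a progenitor to the neuronal fate is driven by proneural factors. Of 11 such genes, 9 had enough counts, 2 were at least 2-fold higher in *tuft*, 1 was lower and 6 were within 2-fold, with a median log2 fold change of 0.45. *Btg2*, an antiproliferative gene of neurogenic divisions, was at 2.21 (1.78 to 2.75), and *Dll1*, the Notch ligand of newborn neurons, at 0.523 (0.438 to 0.621). *Neurog1*, which acts upstream of *Neurod1* in cranial ganglia, gave 14 and 29 counts, 1.41-fold (0.686 to 2.75), and was named after its values were seen.

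Of 34 other genes of early neurons, 23 had enough counts. Of these, 5 were at least 2-fold higher, 13 lower and 5 within 2-fold, with a median of -1.12, and 7 had no *tuft* count. *Syp*, a synaptic vesicle protein, gave 450 *tuft* counts against 75 wild-type counts, 17.5-fold after scaling (13.7 to 22.6). *Onecut2*, a transcription factor of early neurons, was at 13.1 (9.19 to 19.0), and *Cntn2*, an axonal adhesion protein, at 5.61 (4.26 to 7.43). At the other end, *Tagln3* gave 1 *tuft* count against 290 wild-type counts, a ratio of 0.0100 (0.000253 to 0.0564). The adhesion protein gene *L1cam* had no *tuft* count against 257 and was 29.4-fold lower at the floor, with an interval up to 0.0421. *Gng3*, which shares 1780 bases with *Bscl2*, had none against 174 and was 19.9-fold lower at the floor, with an interval up to 0.0624. Genes past 2-fold in either direction were thus found among the other neuronal genes, as they were among all genes (21.3% higher and 38.2% lower).

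Neural progenitor genes, from which the early neuron genes take over, were within 2-fold for 7 of 12, with 4 higher and 1 lower and a median of 0.16. *Hes5*, a Notch target, was at 3.65, *Sox1* at 3.16 and *Hes1* at 2.35, whereas *Pax6* was at 0.514 and *Notch1* at 0.813. *Fabp7*, a gene of radial glia, had no *tuft* count against 100 and was 11.4-fold lower at the floor, with an interval up to 0.109. Relative to *Sox2*, which marks progenitors, lies within the noncoding *Sox2ot* and had 675 and 2052 counts, *Tubb3* was 1.31-fold higher in *tuft* (1.14 to 1.50). Relative to *Nes* it was at 0.700 (0.618 to 0.793). The proportion of neuronal to progenitor transcripts therefore had opposite directions with these progenitor genes as the base. *Map2* relative to *Nes* was at 0.241 (0.162 to 0.348).

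REST is a repressor known to keep neuronal genes, *Stmn2* and *Tubb3* among them, silent in cells that are not neurons. *Rest* gave 2 *tuft* counts against 379 wild-type counts, a ratio of 0.0154 after scaling (0.00185 to 0.0559). Of its 8-gene list with cofactors, 1 was at least 2-fold higher (*Sin3a*, 2.15), 2 were lower (*Rest* and *Rcor1*, 0.189) and 5 within 2-fold, with a median of -0.43. *Kdm1a* was at 0.657, *Hdac1* at 1.29 and *Rcor3* at 0.953. In the same libraries *Stmn2* and *Tubb3* lay within 2-fold, and a part of *Rest* in any of these values was not tested.

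**Figure D5:**
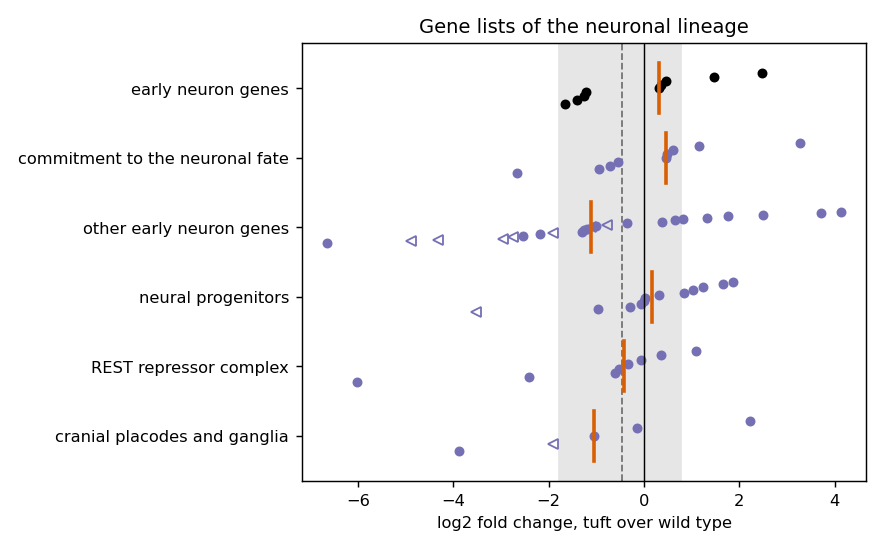
Log2 fold change, *tuft* over wild type (horizontal axis), of the genes in each list that reached a sum of 10 counts, 1 point per gene; orange bars are list medians, open triangles are upper bounds for genes without a *tuft* count, the grey band is the interquartile range of all genes and the dashed line their median. The early neuron genes have a median of 0.33 and the other early neuron genes one of -1.12, and both lists have points on both sides of 0; library totals alone move every point to the left and the first of these medians to -0.07.

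Markers of the other cells in the rostrum differed between the libraries as well, where 21.3% of all genes were at least 2-fold higher and 38.2% lower. Cranial placodes and ganglia, a source of early neurons, had 5 of 7 genes with enough counts, of which 1 was higher, 3 were lower (*Eya1* at 0.0680, *Eya2* at 0.487 and *Pou4f1*) and *Six4* was at 0.901, with a median of -1.04. Their summed level was 150 CPM in *tuft* and 142 in wild type, and *Pou4f1* and *Tlx3* had no *tuft* count, the latter having none in wild type either. Neural crest genes had 1 of 5 higher (*Sox10*, 11.1) and 4 within 2-fold, at 326 and 200 CPM, with no *tuft* count for *Foxd3*. Head mesenchyme had 1 of 5 higher (*Twist1*, 3.14), 1 lower (*Prrx2*, without a *tuft* count) and 3 within, at 307 and 262 CPM. Surface ectoderm had 1 of 5 higher (*Krt8*, 3.14) and 4 within, at 902 and 588 CPM.

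All 4 endothelial genes were at least 2-fold lower, at 49.3 CPM in *tuft* and 233 in wild type, and *Pecam1* had no *tuft* count. Of 6 erythroid genes, 3 were higher and 2 lower, at 35525 and 3197 CPM. Most of the *tuft* sum came from 2 of the higher genes, *Hba-x* (18461 and 1415 CPM) and *Hbb-y* (16155 and 655 CPM). The globin gene *Hbb-bh1* lay within 2-fold (887 and 1083 CPM). The 2 lower genes were *Alas2* (0.215) and *Klf1*, which had no *tuft* count. Of 6 yolk sac genes, none was higher and 5 were lower, at 182 and 1764 CPM, with no *tuft* count for *Apoa4*. The part of these differences in the values of the early neuron genes was not tested. A ratio between early neuron genes does not depend on cells that express none of them. It can still change with the mix of cells that do express them, which was not tested.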

How the data were processed

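The authors deposited raw counts of single-end Ion Proton reads per gene symbol, 1 column for each genotype. Poly-A RNA was used. Per the labels and the methods, reads were aligned to mm10 with TopHat 2.0.14 and Bowtie2 2.2.5, handled with SAMtools 0.1.18 and counted with htseq-count, whose version, overlap mode, strand setting and gene models are not given in the sources used here. Cufflinks 2.1.1 values were not used here. The labels list 2 *tuft* samples and 1 wild-type sample. The *tuft* column could be either *tuft* sample or both. The labels give 30 ng of RNA for the pool and the methods another amount, and the sources differ on the lower end of the somite range. Columns left out numbered 0. Of all entries, the counts on genes made up 27.4% in *tuft* and 37.3% in wild type. The summary lines of the counter, with no gene, were left out (non-unique alignments, 59.2% and 51.4% of entries; no gene, 12.8% and 10.8%; several genes, 0.667% and 0.526%). *Rn45s* held 0.765% and 4.50% of the gene counts.

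Libraries were scaled by TMM (edgeR 4.0.16, R 4.3.3), and fold changes, CPM (per 1000000 counts on genes) and intervals were computed with Python 3.11.15, scipy 1.17.1, numpy 2.4.6 and pandas 2.3.3. A gene was counted as higher or lower at a fold change of at least 2 or at most 0.5, given at least 10 counts in both libraries together, and a count of 0 was set to 3 counts. A floor of 3 counts equals 0.466 CPM in *tuft* and 0.210 CPM in wild type. The NOISeq-sim program of the study judges genes against simulated libraries and was not run. With 1 library per genotype no p-value is given. The scripts were tested on simulated data.

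The members and the lists were chosen with earlier results of these data known. By rule, the text may name the 10 genes, *Tet1*, family relatives with at least 100 counts in either library, and up to 3 genes with the highest and up to 3 with the lowest fold change of each other list among those with at least 100 counts. Any others were named after their values were seen, and some genes of the lists are not reported here by name. Positions are those of RefSeq genes (GRCm38), and exon lengths those of GENCODE vM1 (NCBIM37), where *Map2* was matched by the older symbol *Mtap2*. Of the other genes named, *Map1a*, *Pax6*, *Kdm1a*, *Six4*, *Sox2*, *Rcor3*, *Notch1* and *Nefm* also overlap genes with counts of their own. Alternatives were library totals, the upper quartile, DESeq2's size factors (from their definition), TMM without *Rn45s* and globins, other minimum counts, a fold of 4, and intervals wholly past 2-fold.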

Additional observations from a re-analysis of the deposited data

How the results depend on the processing

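The counts of early neuron genes called higher (*Elavl3*, *Elavl4*) and lower (*Nhlh1*, *Isl1*, *Map2*, *Ina*) named the same genes with library totals, the upper quartile, DESeq2's size factors and TMM without *Rn45s* and the globin genes. With library totals alone, the median log2 fold change of the early neuron genes was -0.069 in place of 0.33, and the median of all genes -0.85 in place of -0.46, with 2217 of 13979 genes higher and 6487 lower in place of 2981 and 5336, so that *Tubb3* (-0.07) and *Stmn2* (-0.05) turned to the other side of 0. With a minimum of 1 count the median of the early neuron genes was -0.23. With at least 100 counts in either library, which 4 early neuron genes reached and *Elavl3* and *Elavl4* did not, it was -0.45, with 0 higher and 2 lower, beside 2382 and 3414 of 10442 genes. At a fold of 4, 1 early neuron gene was higher and 0 lower, beside 1286 and 3138 of all genes. Where the whole counting interval had to lie past 2-fold, 1 was higher and 1 lower, beside 2433 and 4172 of all genes. With the median of all genes set to 0, an alternative chosen after seeing the data, 1 was lower (*Ina*), 2 stayed higher and the median was 0.78, beside 4135 genes higher and 4247 lower. Of 55 comparisons of single genes with an alternative, 51 moved by less than their counting interval and 4 moved by more, those of *Tubb3* and *Stmn2* with library totals and with the all-gene median at 0. No replicate could be left out. No paired analysis was possible because there was 1 library per genotype. Depth limits *Nhlh1*, *Neurod1*, *Dcx* and *Elavl4* most, and the intervals leave out all variation between embryos.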
